A study of Drosophila melanogaster with 15 samples.

Results

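Of the 17558 genes in a table of RNA levels from sorted midgut progenitor cells of adult Drosophila melanogaster, 10 are described here. They are the epidermal growth factor receptor (EGFR) ligand genes spi, Krn and vn, the ligand protease rho, the receptor Egfr, the feedback inhibitors aos, sty and kek1, and the nuclear factors pnt and cic. They were chosen by name, with earlier results of these data known, and all 10 were found in the table by their FlyBase identifiers. The 15 libraries form 5 groups of 3. Flies of the first group carried RNAi against ttk (ttk-RNAi). The next groups overexpressed dpn (dpn OE), the intracellular part of Notch (Nicd OE), or both seq and that part of Notch (seq&Nicd OE). The last group was wild type (Ctrl). All flies were adults of day 7. In every group the cells carried green fluorescent protein, were sorted from elastase-digested guts, and gave RNA that was amplified before library construction. The driver line, the constructs and the sex of the flies are not given in the sources used here. Nothing says that replicates are separate flies or sorts either, so the p-values measure only the spread between these libraries, which may be technical.

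EGFR signalling in the fly gut is known as a mitogenic and survival input to intestinal stem cells. Spitz (spi) and Keren (Krn) are made as membrane-bound precursors that rhomboid proteases such as Rhomboid (rho) cut to release the active ligand, whereas Vein (vn), a neuregulin-like ligand known from the visceral muscle of the gut, is secreted without such a cut. The activated receptor signals through Ras and the mitogen-activated protein kinase (MAPK) Rolled, which relieves repression by Capicua (cic) and activates the ETS factor Pointed (pnt). Argos (aos), Sprouty (sty) and Kekkon-1 (kek1) are induced by the pathway in other fly tissues and dampen it.

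Levels are FPKM (fragments per kilobase of transcript and 1e6 reads), given for replicates 1, 2 and 3 in that order, and were compared as log2(FPKM + 1), which understates the change of low genes. A gene was called at an adjusted p under 0.05 (limma, Benjamini-Hochberg over 8209 tested genes), and a fold is the ratio of the group means. In units of 1e6 reads, depth was estimated at 24.7 to 55.96 per library, and the 150 values of the 10 genes rested on 28 to 89697 reads each. The genes named in the labels did not all follow them: relative to Ctrl, ttk was 3.31-fold higher under the label ttk-RNAi, dpn was 2.57-fold higher in dpn OE (a call lost with median scaling), N was 2.89-fold lower in Nicd OE, and seq was listed at 0 in all 15 libraries. The groups are therefore named by their labels only. Of 7 listed progenitor markers 6 were in the table (all but esg), and their summed level was 1070.1 to 1189 FPKM in ttk-RNAi and 679 to 853 in dpn OE. It was 177 to 253 FPKM in Nicd OE, with seq&Nicd OE at 495 to 582, against 594 to 1454 in Ctrl. A single marker reached 1042 FPKM in Ctrl, so the sum can hide moves of the others. Of the 6, 3 were called higher and 2 lower in ttk-RNAi, and 2 lower in dpn OE, each against Ctrl. In Nicd OE 6 were lower, and in seq&Nicd OE 3 were lower and 1 higher. Shares of all genes called are given below. Markers of other gut cells also moved with the groups. Of 7 enteroendocrine markers, 5 were called lower in ttk-RNAi, 7 in dpn OE, 6 for Nicd OE and 3 for seq&Nicd OE (1 higher), each against Ctrl. They summed to 681 to 724 FPKM in ttk-RNAi and 2843 to 4398 in dpn OE. The sums were 2296 to 3019 FPKM in Nicd OE and 4089 to 5683 for seq&Nicd OE, against 10215 to 60862 in Ctrl. A single enteroendocrine marker reached 55989 FPKM in Ctrl and 3852 in dpn OE, so these sums can also hide moves of the others. Of 8 enterocyte markers, 5 were lower and 1 higher in ttk-RNAi, where they summed to 85.3 to 119 FPKM against 159 to 448 in Ctrl, and 3 were higher in dpn OE, at 557 to 644 FPKM. None of the 8 was called in either Nicd group, with 208 to 320 FPKM in Nicd OE and 152 to 485 for seq&Nicd OE. The 4 of 6 trachea markers in the table summed to 11.3 to 12.2 FPKM in ttk-RNAi, against at most 4.52 in any other library. verm, the only 1 of them tested, was called higher there and for seq&Nicd OE. It reached 1 FPKM in all libraries of ttk-RNAi alone and entered the test through that group, so its call there is not independent of the filter. The 6 haemocyte markers summed to 25.8 to 62.3 FPKM over the manipulated groups, against 9.97 to 22.8 in Ctrl. Of the 2 tested, crq was higher in all of these groups but ttk-RNAi, and srp was lower in dpn OE and Nicd OE. The part of these markers in the results below was not tested.

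Libraries within a group did not always agree. Ctrl replicate 2 was the lowest of the 3 controls for 8 of the 10 genes, with the mean of the other controls 5.70-fold above it for spi and 1.29-fold above it for Krn. It held the highest enteroendocrine sum of the controls, the others being at 10215 and 32236 FPKM, and its mean correlation with them across genes was 0.92, the lowest of the 15 libraries. Replicate 3 was the highest of its group for 10 of the 10 genes in Nicd OE and for 7 of 10 in seq&Nicd OE. In Nicd OE the share of reads assigned to genes was 48.5% in replicate 3, against 33.7% and 34.3% in replicates 1 and 2. This share also differed between groups. The highest seq&Nicd OE library held 48.9%, while the lowest library held 56.4% in Ctrl, 60.8% for dpn OE and 62.9% for ttk-RNAi. FPKM were normalized to the library total, so the levels of all genes carry this share. Scaled to equal assigned reads, Nicd OE against Ctrl had 4 of the 10 genes called lower and 1 higher (6 and 0 as deposited). Over all genes it then had 1208 lower and 1353 higher. The part of the replicate differences in the results was not tested. Values without a library are given where it changed a call or moved a called fold by over 1.5 times.

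In libraries labelled ttk-RNAi, 2 of the 10 genes rose (rho and kek1) and 2 fell (aos and pnt) against Ctrl, where 44.3% of all genes tested were called, 30.7% higher and 13.7% lower. In dpn OE, Egfr rose and rho and cic fell, against 57.1% of all genes called, 44.6% higher and 12.5% lower. Nicd OE held 6 members that fell (spi, Krn, vn, rho, sty and pnt) and none that rose, against 39.3% of all genes called, 5.07% higher and 34.2% lower. In seq&Nicd OE, kek1 rose and vn, rho, aos, sty and pnt fell, against 34.5% of all genes called, 13.3% higher and 21.2% lower. Between seq&Nicd OE and Nicd OE, rho and kek1 rose and aos fell, against 19.6% of all genes called, 15.8% higher and 3.85% lower. As deposited, the shares of members called were thus near or under the background in ttk-RNAi and dpn OE and above it in the others. This reading rests on only 10 genes and did not hold under every scaling, as given below.

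Against Ctrl, the median log2 difference of the 10 genes was -0.12 in ttk-RNAi and 0.087 in dpn OE. It was -1.14 for Nicd OE and -1.13 for seq&Nicd OE, and 0.19 between seq&Nicd OE and Nicd OE. The medians of all genes tested were 0.24, 0.50, -0.40, -0.17 and 0.22 in the same comparisons. The FPKM were also rescaled in 5 other ways, namely median scaling (every library shifted to the same median), quantile normalization, median of ratios, TPM (transcripts per 1e6) and equal assigned reads. With median scaling the calls over all genes were 1950 higher and 2209 lower in ttk-RNAi (2517 and 1121 as deposited) and 1845 and 2581 in dpn OE (3658 and 1028). They were 1566 and 1148 in Nicd OE (416 and 2811), 1593 and 1538 in seq&Nicd OE (1092 and 1740), and 817 and 950 between seq&Nicd OE and Nicd OE (1295 and 316). Of the 22 calls of members, 15 were kept under all 5 scalings. With TPM, Nicd OE had 2 members lower and none higher than Ctrl, against 1070 and 828 of all 8209 genes. For seq&Nicd OE against Ctrl these were 2 and 1, against 686 and 1932. Neither share of members called was then above the background. In dpn OE, median scaling gave 5 members lower and 1 higher, a share not under the background. Fewer cells of a type and less RNA per cell cannot be told apart in such bulk samples. All comparisons with Ctrl share the 3 control libraries and are given side by side, each with its own values.

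**Figure D1:**
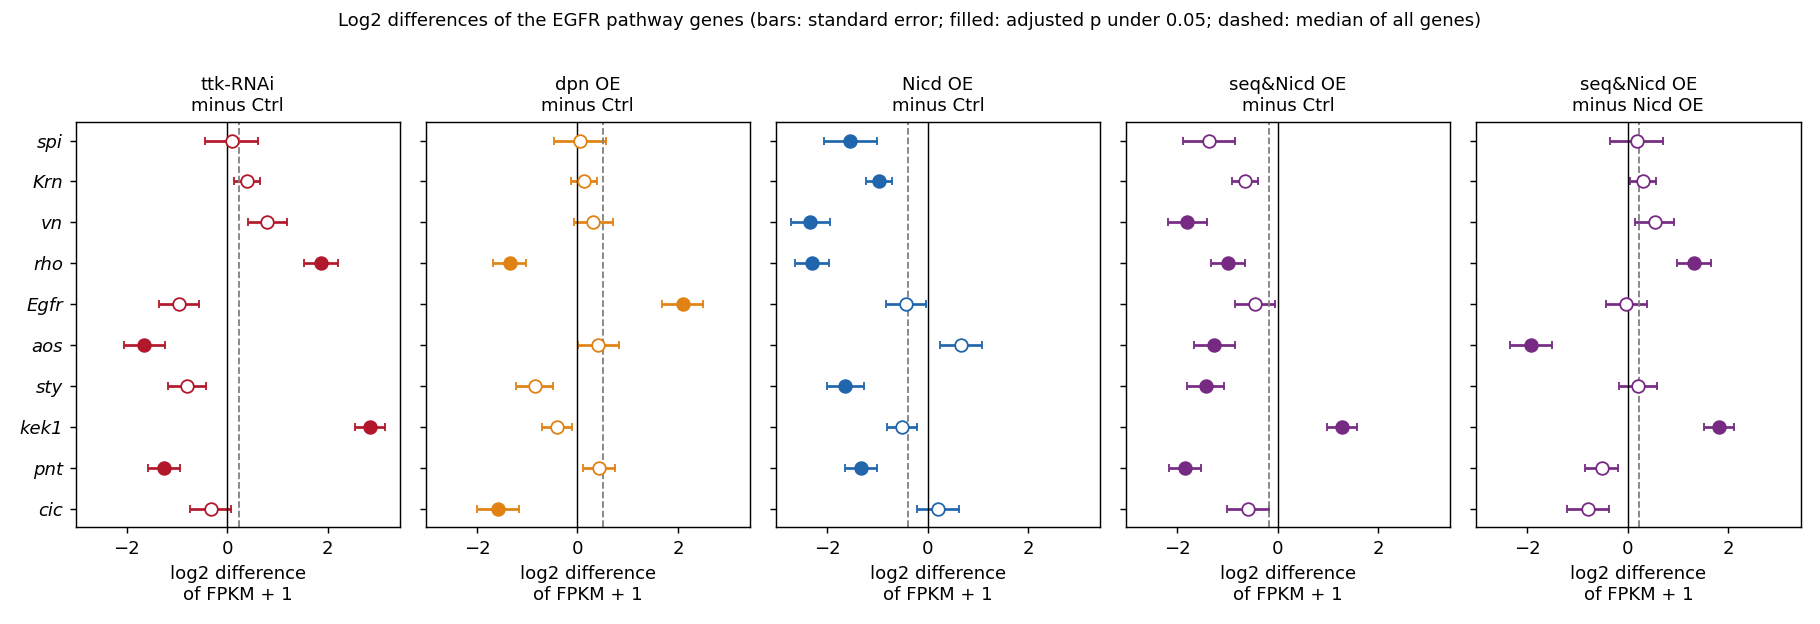
Log2 differences of FPKM + 1 (horizontal axis) of the 10 genes (rows) in the 5 comparisons, with standard errors as bars, filled circles where the adjusted p was under 0.05, and a dashed line at the median of all genes tested. kek1 lies far right of the line in the ttk-RNAi and both seq&Nicd OE panels, and Egfr in the dpn OE panel, while most circles of the Nicd OE panel lie left of the line.

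Transcripts of spi (FBgn0005672, 2L:19567900-19577315 on the minus strand, BDGP6.54), the main ligand precursor by level, were at 125, 143 and 139 FPKM in ttk-RNAi and 123, 144 and 130.02 in dpn OE. Levels were 29.9, 39.1 and 69.01 in Nicd OE and 42.3, 34.8 and 79.3 in seq&Nicd OE, against 248, 39.97 and 207 in Ctrl. Both Nicd groups lay under ttk-RNAi and dpn OE in every library, but Ctrl replicate 2 fell within the range of the Nicd groups. Against Ctrl, spi fell 3.59-fold in Nicd OE (log2 difference -1.54 with SE 0.52, adjusted p = 0.029), a call lost under all 5 scalings, with no filter on low values or only these 2 groups in the fit (adjusted p = 0.068 and 0.13), and without either of Nicd OE replicates 1 and 2 or Ctrl replicates 1 and 3. In seq&Nicd OE it was 3.17-fold lower and did not pass (adjusted p = 0.054), and it was called lower with median scaling or median of ratios (adjusted p = 0.033 and 0.038), without Ctrl replicate 2 (adjusted p = 0.00014) or without seq&Nicd OE replicate 3 (adjusted p = 0.031). The spi means of ttk-RNAi and dpn OE, 136 ± 9.20 and 133 ± 10.6 FPKM against 165 ± 110.3 in Ctrl (SD, n = 3), did not pass the test (adjusted p = 0.91 and 0.94).

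The second precursor gene, Krn (FBgn0052179, 3L:17649562-17654280 on the minus strand), shares 21.3% of its exon bases with Ndfip on the same strand, and its values carry that uncertainty. Its levels were 16.7, 17.2 and 17.02 FPKM in ttk-RNAi and 15.1, 14.6 and 12.4 in dpn OE. Levels were 4.50, 5.04 and 9.65 in Nicd OE and 6.70, 6.44 and 10.7 in seq&Nicd OE, against 12.98, 10.8 and 14.8 in Ctrl. All libraries of both Nicd groups were under the lowest control, the nearest being seq&Nicd OE replicate 3, and all ttk-RNAi libraries were above the highest. Krn fell 2.01-fold in Nicd OE (log2 difference -0.96 with SE 0.26, adjusted p = 0.009), which was lost with TPM scaling, with equal assigned reads and with only these 2 groups in the fit (adjusted p = 0.22, 0.12 and 0.088). In seq&Nicd OE it was 1.62-fold lower and did not pass (adjusted p = 0.063). Leaving out Ctrl replicate 2, Nicd OE replicate 3 or seq&Nicd OE replicate 3 turned this into a call (adjusted p = 0.035, 0.023 and 0.02), as did median scaling, quantile normalization and median of ratios (adjusted p = 0.022, 0.024 and 0.04). In ttk-RNAi and dpn OE the Krn means were 1.32-fold and 1.09-fold those of Ctrl and did not pass (adjusted p = 0.24 and 0.7). Under the same 3 scalings Krn was called lower in dpn OE (adjusted p = 0.024, 0.032 and 0.031).

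The ligand with the widest relative range was vn (FBgn0003984, 3L:5813338-5845664 on the minus strand). It was at 8.89, 8.65 and 12.95 FPKM in ttk-RNAi and 5.81, 3.68 and 14.1 in dpn OE. Levels were 0.205, 0.198 and 0.347 in Nicd OE and 0.652, 0.464 and 1.46 in seq&Nicd OE, against 2.78, 5.72 and 8.93 in Ctrl. No library of either Nicd group reached the lowest control. vn fell 23.2-fold in Nicd OE (log2 difference -2.34 with SE 0.39, adjusted p = 0.00034) and 6.77-fold in seq&Nicd OE (log2 difference -1.80 with SE 0.39, adjusted p = 0.0021), or 10.4-fold without seq&Nicd OE replicate 3, and both calls were kept under all 5 scalings. Differences in ttk-RNAi and dpn OE, 1.75-fold and 1.35-fold higher, did not pass (adjusted p = 0.11 and 0.51), although vn in ttk-RNAi was called without Ctrl replicate 3 (adjusted p = 0.036) or without dpn OE replicate 3 (adjusted p = 0.0496). Since vn is known from visceral muscle, muscle genes were read beside it. Of 12 listed, 11 were in the table, none reached 1 FPKM in all libraries of any group, and their summed level was 2.85 to 3.27 FPKM in ttk-RNAi and 1.06 to 5.22 in dpn OE. It was 1.04 to 1.81 FPKM in Nicd OE, with seq&Nicd OE at 2.01 to 2.39, against 2.27 to 2.89 in Ctrl. The only 1 of them tested was called lower than Ctrl in ttk-RNAi, dpn OE and seq&Nicd OE (log2 differences -0.64, -0.63 and -0.72). In Nicd OE it did not pass (-0.32). The part of muscle in the vn values was not tested.

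**Figure D2:**
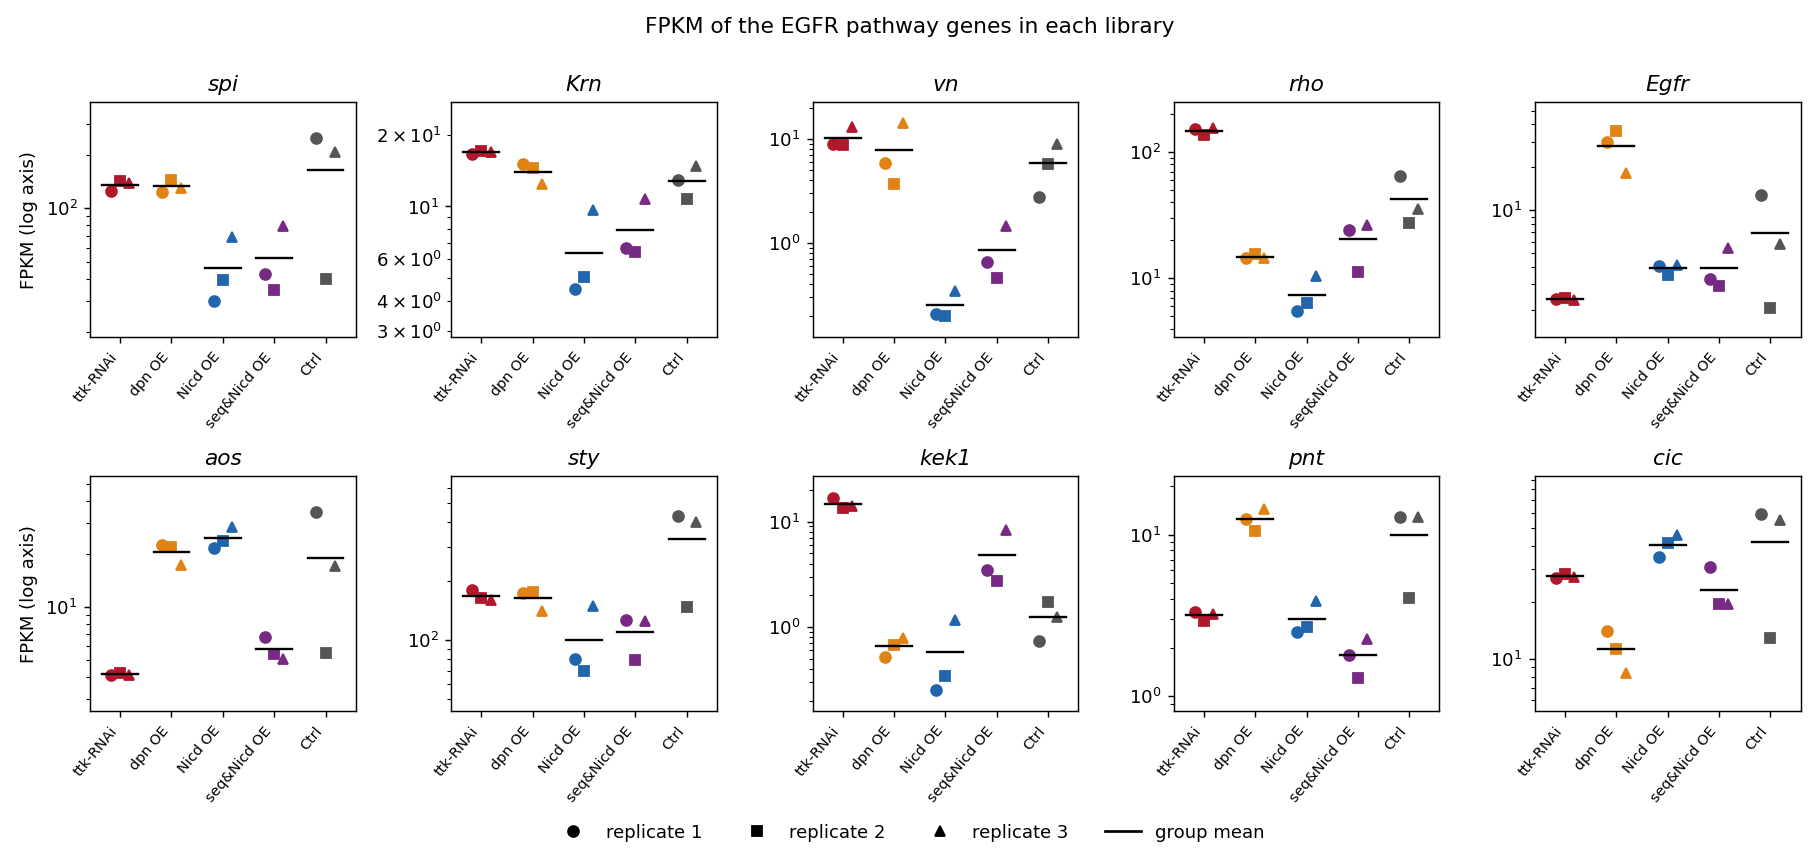
FPKM of the 10 genes (panels, log axes of differing range) in each library of the 5 groups, with replicates as circle, square and triangle and group means as lines. Ctrl replicate 2 (square) is the lowest control in 8 panels, and Nicd OE replicate 3 (triangle) is the highest of its group in 10.

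Together with gurken (grk), the ligand gene known from the germline, the ligand transcripts summed to 173 to 192 FPKM in ttk-RNAi and 146 to 163 in dpn OE. The sum was 36.5 to 83.8 FPKM in Nicd OE, with seq&Nicd OE at 55.8 to 107, against 57.97 to 267 in Ctrl. The mean share of spi in that sum was 73.4% in ttk-RNAi, 85.1% in dpn OE and 82.8% in Nicd OE. It was 67.8% in seq&Nicd OE, against 83.5% in Ctrl. The share of grk was 11.9% in ttk-RNAi and 20.4% in seq&Nicd OE, against 0.821% in dpn OE, 5.16% for Nicd OE and 1.67% in Ctrl. spi was thus the most abundant ligand transcript in every library, and grk the second in both groups where its share was high. Against Ctrl, grk rose 8.76-fold in ttk-RNAi (log2 difference 2.74 with SE 0.26, adjusted p = 3.8e-07) and 5.71-fold in seq&Nicd OE (log2 difference 2.16 with SE 0.26, adjusted p = 1.0e-05), and it rose 4.86-fold in seq&Nicd OE against Nicd OE (adjusted p = 2.2e-05). Of its exon bases 12.3% are shared with Akap200 on the other strand, so reads of both genes cannot be told apart there.

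**Figure D3:**
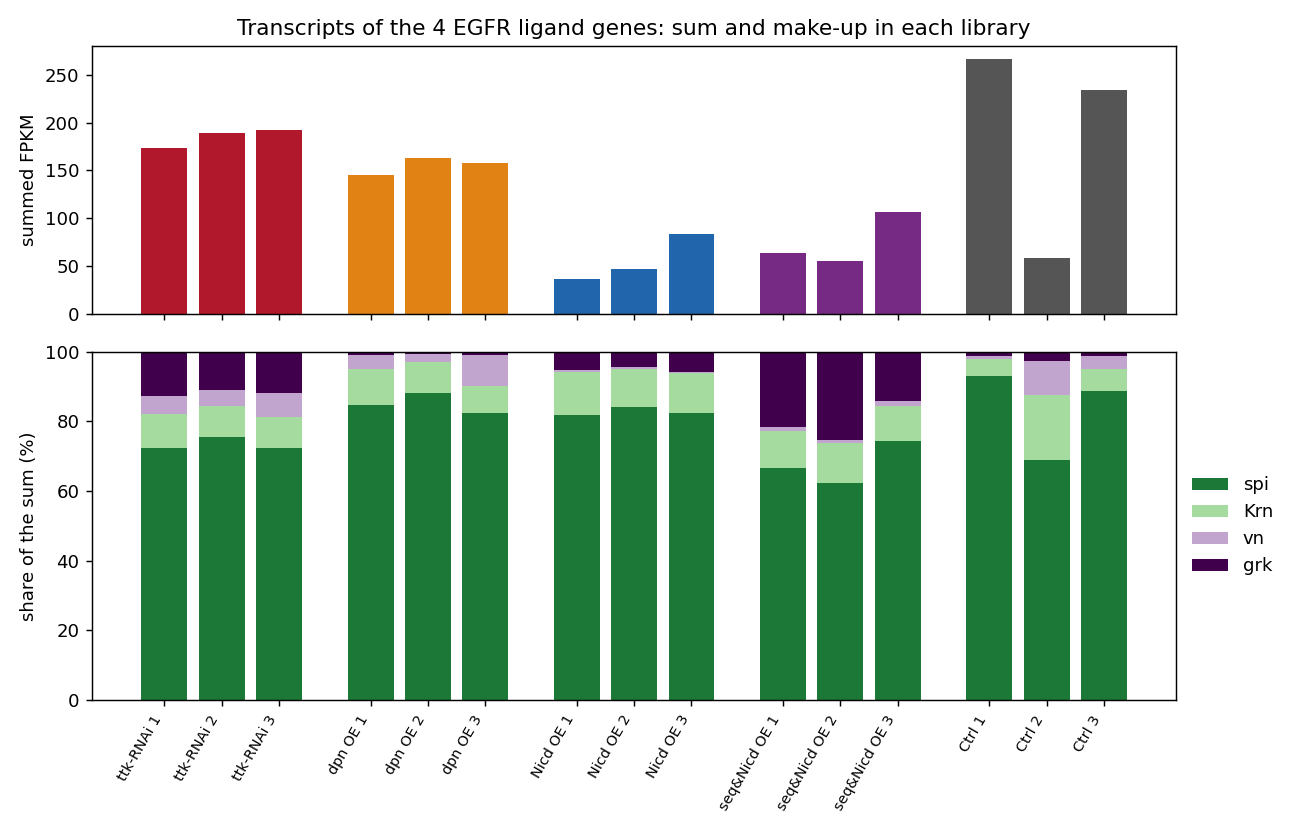
Summed FPKM of the ligand genes spi, Krn, vn and grk (upper panel) and the share of each in that sum in percent (lower panel) for each of the 15 libraries. The sums of Nicd OE and of Ctrl replicate 2 are low, and the grk share stands out in ttk-RNAi and seq&Nicd OE.

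rho (FBgn0004635, 3L:1463811-1468944 on the plus strand), which encodes the protease that releases Spi and Krn, was called in all 5 comparisons. Its levels were 151, 135 and 155 FPKM in ttk-RNAi and 14.5, 15.6 and 14.6 in dpn OE. Levels were 5.47, 6.34 and 10.5 in Nicd OE and 24.2, 11.3 and 26.4 in seq&Nicd OE, against 64.2, 27.2 and 35.1 in Ctrl. All ttk-RNAi libraries were above, and all libraries of the other manipulated groups below, the 3 controls. In libraries labelled ttk-RNAi, rho rose 3.49-fold (log2 difference 1.87 with SE 0.34, adjusted p = 0.00032). It fell 2.83-fold in dpn OE (log2 difference -1.35 with SE 0.34, adjusted p = 0.0031) and 5.66-fold in Nicd OE (log2 difference -2.31 with SE 0.34, adjusted p = 0.00012), and these 3 calls were kept under all 5 scalings.

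The fall of rho in seq&Nicd OE, 2.05-fold (log2 difference -0.99 with SE 0.34, adjusted p = 0.033), was lost with TPM scaling, equal assigned reads, no filter on low values or only these 2 groups (adjusted p = 0.38, 0.12, 0.055 and 0.15), and without Ctrl replicate 1 (adjusted p = 0.15) or seq&Nicd OE replicate 2 (adjusted p = 0.19). Against Nicd OE, seq&Nicd OE libraries had 2.77-fold more rho (log2 difference 1.32 with SE 0.34, adjusted p = 0.01), with no overlap between the groups. That rise was lost without Nicd OE replicate 1 (adjusted p = 0.056) or seq&Nicd OE replicate 3 (adjusted p = 0.058).

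The level of rho-4, another rhomboid gene, was below that of rho in ttk-RNAi (40.7 and 147 FPKM). It averaged above rho in dpn OE (34.4 and 14.9), in Nicd OE (21.5 and 7.44) and for seq&Nicd OE (32.95 and 20.6), and close to it in Ctrl (42.9 and 42.2). stet (3L:1475438-1489547), a rhomboid known from the germline that lies next to rho, averaged 5.12 ± 0.986 FPKM in ttk-RNAi against 0.302 ± 0.133 in Ctrl (SD, n = 3, 16.9-fold, adjusted p = 2.2e-09). ru (3L:1370628-1387437), the rhomboid roughoid, lies on the other side of rho, is named here after its values were seen, and averaged 2.85 ± 0.119 FPKM in ttk-RNAi against 0.0771 ± 0.0296 in Ctrl, a rise of 36.9-fold (adjusted p = 2.4e-09) over a Ctrl level that rests on 14 reads in all. stet, ru and rho-5 (named next) reached the 1 FPKM needed for testing only through groups where they are high, so their calls are not independent of that filter. In seq&Nicd OE, stet was at 1.54 ± 0.260 FPKM, against 0.0716 ± 0.0382 in Nicd OE (21.5-fold, adjusted p = 4.1e-06), and rho-5, a rhomboid-like protein thought to lack protease activity, was at 2.15 ± 0.270 against 0.239 ± 0.0290 (8.99-fold, adjusted p = 1.1e-06). In Nicd OE against Ctrl, rho-4 fell 1.99-fold (21.5 against 42.9 FPKM, adjusted p = 0.0046), a call kept under 1 of the 5 scalings, and rho-5 in dpn OE fell 3.71-fold (0.175 against 0.650 FPKM, adjusted p = 0.0059), a call lost with quantile normalization. Both of these rho-5 means were under the 1 FPKM of the filter. Star (S), the factor that carries the Spi precursor out of the endoplasmic reticulum, fell 1.97-fold in ttk-RNAi, 8.99-fold in Nicd OE and 6.90-fold in seq&Nicd OE against Ctrl (adjusted p = 0.0063, 1.5e-06 and 1.2e-06), all kept under all 5 scalings. cornichon (cni), which takes part in the export of Grk, rose 2.38-fold in ttk-RNAi (adjusted p = 0.005) and 2.03-fold in seq&Nicd OE (adjusted p = 0.032), the second call being lost without seq&Nicd OE replicate 3 or Ctrl replicate 2.

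Egfr (FBgn0003731, 2R:21522420-21559977 on the plus strand), the receptor itself, was at 2.38, 2.42 and 2.32 FPKM in ttk-RNAi and 30.1, 35.9 and 18.2 in dpn OE. Levels were 4.07, 3.49 and 4.09 in Nicd OE and 3.30, 2.94 and 5.45 in seq&Nicd OE, against 12.7, 2.04 and 5.79 in Ctrl. The dpn OE libraries were all above every other library, and the control range covered those of the other 3 groups. Egfr rose 4.09-fold in dpn OE (log2 difference 2.09 with SE 0.40, adjusted p = 0.0005), or 7.16-fold without Ctrl replicate 1, and the call was kept under all 5 scalings. In ttk-RNAi it was 2.89-fold lower and did not pass (adjusted p = 0.064), but was called lower under 4 of the 5 scalings and without Ctrl replicate 2 (adjusted p = 0.0013). In Nicd OE and seq&Nicd OE the Egfr means, 3.89 ± 0.343 and 3.90 ± 1.36 FPKM against 6.85 ± 5.41 in Ctrl, did not pass (adjusted p = 0.42 and 0.4), and were called lower only without Ctrl replicate 2 (adjusted p = 0.019 for both).

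Among the feedback inhibitors, aos (FBgn0004569, 3L:16470386-16483650 on the minus strand) encodes a secreted protein that binds Spi. It was at 4.07, 4.22 and 4.10 FPKM in ttk-RNAi and 22.6, 21.998 and 17.3 in dpn OE. Levels were 21.8, 23.8 and 28.4 in Nicd OE and 6.77, 5.42 and 5.07 in seq&Nicd OE, against 34.9, 5.44 and 17.1 in Ctrl. All ttk-RNAi libraries were below the lowest control, while seq&Nicd OE lay low and Nicd OE high with no overlap between them. In libraries labelled ttk-RNAi, aos fell 4.63-fold (log2 difference -1.65 with SE 0.41, adjusted p = 0.0043), or 2.73-fold without Ctrl replicate 1, which was kept under all 5 scalings but not with only these 2 groups in the fit (adjusted p = 0.059). Against Nicd OE, aos fell 4.29-fold in seq&Nicd OE (log2 difference -1.93 with SE 0.41, adjusted p = 0.0028), kept under all 5 scalings and without any 1 library.

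Against Ctrl, aos fell 3.33-fold in seq&Nicd OE (log2 difference -1.26 with SE 0.41, adjusted p = 0.027), a call lost with TPM scaling, equal assigned reads, no filter or only these 2 groups (adjusted p = 0.27, 0.099, 0.054 and 0.14), and without any 1 of seq&Nicd OE replicates 2 and 3 and Ctrl replicates 1 and 3 (adjusted p = 0.076, 0.065, 0.13 and 0.074). Its fold was 1.96-fold without Ctrl replicate 1. In dpn OE and Nicd OE the aos means, 20.6 ± 2.89 and 24.7 ± 3.39 FPKM against 19.1 ± 14.8 in Ctrl, did not pass (adjusted p = 0.41 and 0.21). Without Ctrl replicate 1, the highest control, both were called higher (adjusted p = 0.017 and 0.01), and Nicd OE also under 4 of the 5 scalings.

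sty (FBgn0014388, 3L:3401153-3424935 on the minus strand), which encodes an intracellular inhibitor of Ras and MAPK signalling, had the highest FPKM of the 3 inhibitors in every library. It was at 181, 165 and 161 FPKM in ttk-RNAi and 174, 177 and 142 in dpn OE. Levels were 79.98, 69.5 and 149.98 in Nicd OE and 127, 79.6 and 125 in seq&Nicd OE, against 429.98, 148 and 403 in Ctrl. Ctrl replicates 1 and 3 were above all other libraries, and Ctrl replicate 2 was within the range of the manipulated groups. sty fell 3.28-fold in Nicd OE (log2 difference -1.64 with SE 0.37, adjusted p = 0.0031) and 2.95-fold in seq&Nicd OE (log2 difference -1.44 with SE 0.37, adjusted p = 0.0072). Both calls were lost with TPM scaling (adjusted p = 0.074 and 0.12), and the second also with only these 2 groups (adjusted p = 0.054). It was 1.93-fold lower in ttk-RNAi and 1.99-fold lower in dpn OE, which did not pass (adjusted p = 0.091 and 0.061), and both were called lower under 4 of the 5 scalings and without Ctrl replicate 2 (adjusted p = 0.0021 and 0.0013). sty in dpn OE was also called without Nicd OE replicate 3 (adjusted p = 0.041).

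The third inhibitor gene, kek1 (FBgn0015399, 2L:12817000-12822787 on the minus strand), encodes a transmembrane protein that binds the receptor. Its levels were 16.9, 13.5 and 14.1 FPKM in ttk-RNAi and 0.520, 0.670 and 0.781 in dpn OE. Levels were 0.254, 0.340 and 1.16 in Nicd OE and 3.49, 2.72 and 8.25 in seq&Nicd OE, against 0.734, 1.74 and 1.24 in Ctrl. The ttk-RNAi libraries were above all others, the seq&Nicd OE libraries were above all of the remaining 3 groups, and those 3 groups lay at or under 1.74 FPKM. kek1 rose 11.999-fold in libraries labelled ttk-RNAi (log2 difference 2.84 with SE 0.30, adjusted p = 1.2e-06).

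In seq&Nicd OE, kek1 rose 3.89-fold against Ctrl (log2 difference 1.29 with SE 0.30, adjusted p = 0.0036) and 8.26-fold against Nicd OE (log2 difference 1.80 with SE 0.30, adjusted p = 0.0003). Without seq&Nicd OE replicate 3 these folds were 2.51-fold and 5.32-fold, and without Nicd OE replicate 3 the second was 16.2-fold. All 3 rises were kept under all 5 scalings and without any 1 library. kek1 in dpn OE and Nicd OE did not pass against Ctrl (adjusted p = 0.25 and 0.18), and with median scaling kek1 was called lower in dpn OE (adjusted p = 0.0075).

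pnt (FBgn0003118, 3R:23290231-23346167 on the minus strand), the ETS activator downstream of MAPK, was at 3.33, 2.90 and 3.24 FPKM in ttk-RNAi and 12.4, 10.4 and 14.4 in dpn OE. Levels were 2.48, 2.68 and 3.89 in Nicd OE and 1.80, 1.29 and 2.27 in seq&Nicd OE, against 12.9, 4.03 and 12.9 in Ctrl. All libraries of ttk-RNAi, Nicd OE and seq&Nicd OE were under the lowest control, and the dpn OE range reached past the highest. pnt fell 3.15-fold in ttk-RNAi (log2 difference -1.26 with SE 0.32, adjusted p = 0.0049), 3.30-fold in Nicd OE (log2 difference -1.32 with SE 0.32, adjusted p = 0.0049) and 5.56-fold in seq&Nicd OE (log2 difference -1.84 with SE 0.32, adjusted p = 0.00036). The Nicd OE call was lost with TPM scaling (adjusted p = 0.11) and with only these 2 groups (adjusted p = 0.069), and the other calls were kept under all 5 scalings. In dpn OE pnt did not pass (1.25-fold, adjusted p = 0.27).

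cic (FBgn0262582, 3R:20252770-20303942 on the plus strand), the repressor that MAPK relieves, was at 26.9, 28.2 and 27.5 FPKM in ttk-RNAi and 14.01, 11.3 and 8.41 in dpn OE. Levels were 34.7, 41.4 and 45.7 in Nicd OE and 30.8, 19.5 and 19.6 in seq&Nicd OE, against 58.8, 12.9 and 54.7 in Ctrl. Ctrl replicate 2 was under all libraries but 2 of dpn OE, and the other controls were above all libraries of all groups. cic fell 3.74-fold in dpn OE (log2 difference -1.58 with SE 0.42, adjusted p = 0.0047), although dpn OE replicate 1 was above Ctrl replicate 2. This was kept under all 5 scalings and lost with only these 2 groups (adjusted p = 0.053). No other comparison of cic with Ctrl passed (adjusted p = 0.54 in ttk-RNAi, 0.74 with Nicd OE and 0.29 with seq&Nicd OE). Without Ctrl replicate 2, cic was called lower in ttk-RNAi (adjusted p = 0.0028) and likewise in seq&Nicd OE (adjusted p = 0.00065).

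Deviations of same-numbered libraries of seq&Nicd OE and Nicd OE correlated at 0.20, 0.21 and 0.43, but seq&Nicd OE replicate 2 reached 0.26 with a Nicd OE library of another number. The replicate number was also used as a block in a fit of these 2 groups alone. The block was chosen from these same data, so calls that it added are no independent support. That fit called 6 members and 2502 of all genes, against 3 and 1382 in the same fit without the block (3 and 1611 in the fit of all 5 groups). rho, kek1 and aos were called again (adjusted p = 0.0077, 0.00043 and 0.00053), vn was called higher (3.43-fold, adjusted p = 0.027, or 2.23-fold without seq&Nicd OE replicate 3), and pnt and cic were called lower (1.69-fold and 1.74-fold, adjusted p = 0.044 and 0.038). Without the block, vn, pnt and cic had adjusted p = 0.087, 0.18 and 0.069 in that fit and 0.38, 0.29 and 0.21 in the fit of all 5 groups. With all 5 groups, pnt and cic were also called lower under 3 scalings and without Ctrl replicate 2 (adjusted p = 0.049 and 0.011). spi, Krn, Egfr and sty differed between these groups by 1.13-fold, 1.24-fold, 1.002-fold and 1.11-fold (ratios of means), none of which passed in any of these fits.

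The manipulated groups also differed from each other, without the control libraries entering the difference of means. The controls still entered the spread, which was estimated over all 15 libraries, so these p-values are not independent of the wide control group. Between ttk-RNAi and dpn OE, 6 of 10 members were called, against 61.7% of all genes. rho was 9.89-fold, kek1 22.6-fold and cic 2.45-fold higher in ttk-RNAi (adjusted p = 8.7e-07, 2.0e-07 and 0.017). Egfr was 11.8-fold, aos 5.001-fold and pnt 3.93-fold lower (adjusted p = 1.0e-05, 0.00048 and 0.00032). All 6 were kept under all 5 scalings. Between seq&Nicd OE and dpn OE, 8 members were called, against 70.9% of all genes. Egfr was 7.20-fold and pnt 6.94-fold lower in seq&Nicd OE (adjusted p = 5.1e-05 and 1.8e-05), and kek1 was 7.33-fold higher (adjusted p = 0.00014). Between seq&Nicd OE and ttk-RNAi, 5 members were called, against 45% of all genes. kek1 was 3.08-fold and rho 7.14-fold lower in seq&Nicd OE (adjusted p = 0.00073 and 9.2e-06), and aos did not pass (5.75 ± 0.899 FPKM against 4.13 ± 0.0821 in ttk-RNAi, adjusted p = 0.46). Set against Nicd OE, 6 members were called in ttk-RNAi and 7 in dpn OE, where 61.5% and 67.1% of all genes were called. vn was 40.6-fold higher in ttk-RNAi and 31.4-fold higher in dpn OE than in Nicd OE (adjusted p = 6.0e-06 and 2.5e-05), and aos was 5.98-fold lower in ttk-RNAi (adjusted p = 0.00021).

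Ordered by group mean, neighbouring groups differed in 11 of 40 pairs over the 10 genes. The order was taken from these same means and no such count was made over all genes, so the count is not read as a result about the 10 genes. rho separated most, with ttk-RNAi above Ctrl, Ctrl above seq&Nicd OE, and dpn OE above Nicd OE (adjusted p = 0.02, a call lost under all 5 scalings), while seq&Nicd OE and dpn OE did not differ (adjusted p = 0.35, called higher in seq&Nicd OE under all 5 scalings). For kek1 the order was ttk-RNAi, seq&Nicd OE and Ctrl, each above the next, with dpn OE and Nicd OE not told apart from Ctrl or each other as deposited. Egfr separated only dpn OE from the next group, and aos separated Nicd OE, dpn OE and Ctrl from seq&Nicd OE and ttk-RNAi at the step between Ctrl and seq&Nicd OE. For Krn and sty no neighbouring groups differed.

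Of 47 other EGFR pathway genes listed, 44 were in the table and 41 were tested. The list was written with earlier results of these data known, so its shares are not independent of them. In ttk-RNAi 14 were higher and 6 lower (34.1% and 14.6%, against 30.7% and 13.7% of all genes), and in dpn OE 9 and 6 (22.0% and 14.6%, against 44.6% and 12.5%). The 14 included ttk itself, which was listed as a negative regulator. Nicd OE had none higher and 18 lower (43.9%, against 34.2%, with 5.07% of all genes higher), and seq&Nicd OE 10 and 10 (24.4% each, against 13.3% and 21.2%), each compared with Ctrl. seq&Nicd OE against Nicd OE had 10 and 1 (24.4% and 2.44%, against 15.8% and 3.85%). The shares in ttk-RNAi were thus near those of all genes. With median scaling these counts were 12 and 11, 4 and 22, 6 and 10, 12 and 13, and 9 and 2 in the same order. Over all 8209 genes they were then 1950 and 2209, 1845 and 2581, 1566 and 1148, 1593 and 1538, and 817 and 950. Without Ctrl replicate 2 the counts of the 41 genes were 12 and 11, 7 and 14, 0 and 27, 9 and 21, and 12 and 1. Those stand without a background, as calls over all genes also moved with the library left out (2151 to 4068 in Nicd OE). The median log2 differences of the 41 genes were 0.22, -0.07, -0.49, -0.30 and 0.26 as deposited, again in that order. The balance of higher and lower genes in dpn OE turned over with the scaling, and the genes named next were kept under all 5 scalings unless said otherwise.

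Among the core signalling genes, csw, the phosphatase that relays receptor signals to Ras, rose 3.31-fold in ttk-RNAi (34.4 against 10.4 FPKM, adjusted p = 0.00052), 2.50-fold in seq&Nicd OE against Ctrl (adjusted p = 0.0061) and 2.77-fold against Nicd OE (adjusted p = 0.008). The adaptor gene drk, which shares 19.6% of its exon bases with other genes, rose 2.24-fold in ttk-RNAi (adjusted p = 0.00078), and Sos, the exchange factor that Drk recruits, fell 2.77-fold there (1.10 against 3.06 FPKM, adjusted p = 0.0043). In dpn OE, 6 of 12 core genes were higher, a share near the 44.6% of all genes, with Ras85D (the Ras GTPase) 2.68-fold and rl (the MAPK Rolled) 2.69-fold higher (adjusted p = 0.0023 and 0.0015). In Nicd OE, 4 of 12 were lower, near the 34.2% of all genes, with Dsor1 (the MAPK kinase) 2.21-fold and the adaptor dos 2.47-fold lower (adjusted p = 0.0019 and 0.047), both lost under all 5 scalings. Dsor1 was also 1.80-fold lower in seq&Nicd OE (adjusted p = 0.014), lost under 3 of the 5 scalings and without seq&Nicd OE replicate 1.

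Of the other negative regulators, Mkp3, the phosphatase that inactivates MAPK, fell in all 4 comparisons with Ctrl. It was at 17.7 ± 1.87 FPKM in ttk-RNAi and 29.4 ± 1.36 in dpn OE. In Nicd OE it was at 8.77 ± 3.89 and in seq&Nicd OE at 5.93 ± 0.719 FPKM, against 87.1 ± 34.4 in Ctrl (SD, n = 3). The folds were 4.92, 2.96, 9.93 and 14.7, with no overlap with the controls (adjusted p = 3.6e-05, 0.001, 3.5e-06 and 3.6e-07). The Kekkon relatives moved apart. kek2 rose 21.1-fold in ttk-RNAi, both at low levels (1.56 against 0.0738 FPKM, adjusted p = 3.9e-08), and 5.27-fold in seq&Nicd OE (adjusted p = 0.0092, lost with quantile normalization). It reached the 1 FPKM needed for testing only through groups where it is high, so these calls are not independent of that filter. kek5 fell 3.26-fold in ttk-RNAi (16.05 against 52.4 FPKM, adjusted p = 0.00032).

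edl, which encodes an antagonist of Pnt and Yan, rose 2.92-fold in dpn OE (123 against 41.999 FPKM, adjusted p = 0.00022) and fell 1.89-fold in ttk-RNAi, 3.72-fold in Nicd OE and 3.69-fold in seq&Nicd OE (adjusted p = 0.021, 0.00017 and 0.00014), the first of these falls being lost without Ctrl replicate 1 or either of ttk-RNAi replicates 1 and 2. Spred, a Sprouty relative, fell 4.999-fold in dpn OE (adjusted p = 0.00033). ed (Echinoid), a cell adhesion protein that antagonises the pathway in the eye, fell 22.2-fold in Nicd OE (3.02 against 67.1 FPKM, adjusted p = 8.6e-07) and was 12.1-fold higher in seq&Nicd OE than in Nicd OE (36.6 against 3.02 FPKM, adjusted p = 2.2e-06). lbk (Lambik), a leucine-rich repeat protein, was likewise 8.22-fold higher in seq&Nicd OE than in Nicd OE (adjusted p = 1.2e-06) and 2.35-fold higher than in Ctrl (adjusted p = 0.0019). Cbl, the ubiquitin ligase that takes the receptor off the surface, fell 2.99-fold in seq&Nicd OE against Nicd OE (25.03 against 74.8 FPKM, adjusted p = 0.016), which was lost without Nicd OE replicate 3 or seq&Nicd OE replicate 2, and in dpn OE its rise of 1.77-fold (adjusted p = 0.038) was kept under 1 of the 5 scalings.

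Of the nuclear effectors and reported targets, the cell cycle genes CycE and stg were called in several comparisons. CycE, which drives entry into S phase, was at 8.79 ± 0.661 FPKM in ttk-RNAi and 9.72 ± 1.57 in seq&Nicd OE, against 0.653 ± 0.375 in Ctrl, or 13.5-fold and 14.9-fold higher (adjusted p = 3.6e-08 and 6.8e-08). CycE reached the 1 FPKM needed for testing only through groups where it is high, so its calls are not independent of that filter. stg, the Cdc25 phosphatase that drives entry into mitosis, rose 3.30-fold in ttk-RNAi and 2.16-fold in seq&Nicd OE (adjusted p = 3.6e-05 and 0.0025), and fell 10.3-fold in Nicd OE (adjusted p = 7.6e-07). In seq&Nicd OE it was at 58.003 ± 6.23 FPKM, against 2.62 ± 1.27 in Nicd OE (22.2-fold, adjusted p = 5.2e-09). The LIM-homeodomain gene tup fell 28.2-fold in dpn OE (0.938 against 26.5 FPKM, adjusted p = 2.3e-06), and Myc fell 3.91-fold there (adjusted p = 0.0032), a value that is uncertain because 61.2% of its exon bases are shared with other genes. Ets21C, an ETS factor of stress responses that shares 28.3% of its exon bases, fell 5.65-fold in Nicd OE and 4.66-fold in seq&Nicd OE (adjusted p = 6.9e-05 and 0.00018).

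**Figure D4:**
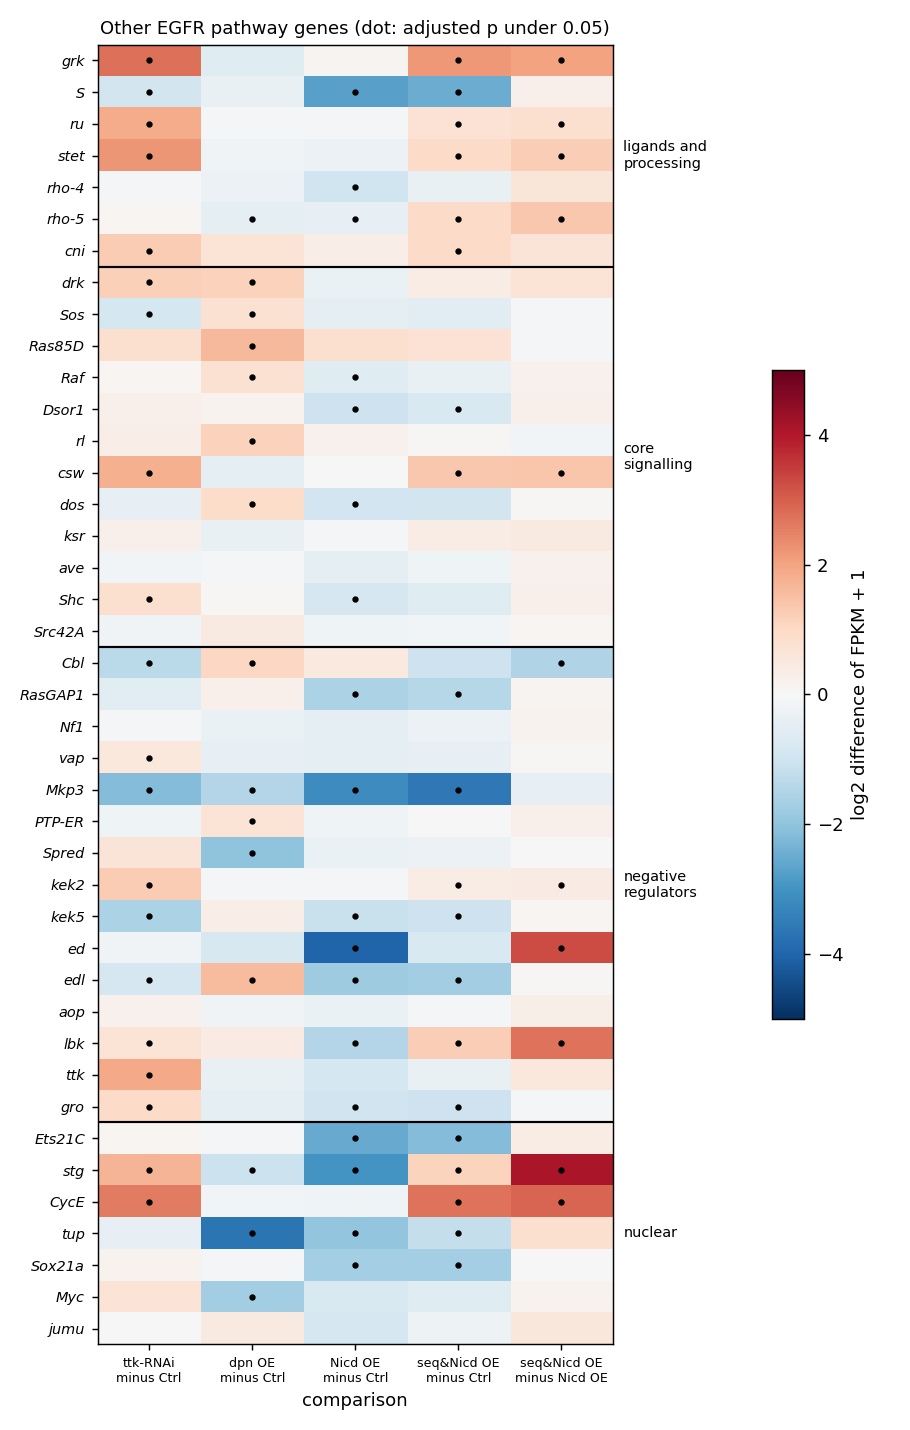
Log2 difference of FPKM + 1 (colour, red higher and blue lower in the first-named group) of the 41 tested other EGFR pathway genes (rows, in 4 lists) in the 5 comparisons (columns), with a dot where the adjusted p was under 0.05. Mkp3 is blue with a dot in all 4 columns against Ctrl, and grk, CycE and stg are red with a dot in ttk-RNAi and in both seq&Nicd OE columns.

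Over the 15 libraries, the pattern most like that of each member was taken from Pearson's r of log2(FPKM + 1) among genes with a mean of at least 10 FPKM in some group. Since libraries of a group share their treatment, these r values describe group differences and carry no test. rho was closest to klu (r = 0.96), a zinc-finger gene of enteroblasts and itself one of the listed progenitor markers, at 122 FPKM in ttk-RNAi and 19.5 in dpn OE. In Nicd OE klu was at 14.8 and in seq&Nicd OE at 28.9 FPKM, against 35.6 in Ctrl (group means). kek1 was closest to Corp (r = 0.98), at 61.4, 0.42, 1.06, 8.31 and 2.54 FPKM in the same groups, and next to gogo. Egfr was closest to CG2915 (r = 0.98) and CG30345, aos to osp (r = 0.95) and to Cbl, pnt to B4 (r = 0.97) and alpha-Est9, and cic to CG7332 (r = 0.92) and ftz-f1. Among the ligands, spi was closest to glec (r = 0.98) and cg, Krn to CCT5 (r = 0.97) and Polr2A, and vn to CG4267 (r = 0.97) and Mettl4, and sty was closest to emc (r = 0.95) and Sirt1.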

How the data were processed

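The authors deposited 1 table of FPKM per gene and library, normalized to gene length and library total. STAR 2.6.1a, DESeq2 and the genome build BDGP6 are named per the submitters' processing notes. How reads were counted, and with which strand setting, is not given in the sources used here. All columns matched a library by title, and 17252 of 17558 identifiers took a symbol from the BDGP6.54 annotation. The members and gene lists were chosen with earlier results of these data known.

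Depth was recovered from low FPKM values: for genes of 20 reads or fewer, 97.8% to 98.3% of values per library came out as whole reads within 0.02 reads. Precision from such depths covers counting error only, as PCR copies are counted too.

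The scale was log2(FPKM + 1), for the 8209 genes reaching 1 FPKM in 3 or more libraries, which all 10 members passed. vn and kek1, under 1 FPKM in some groups, passed through the groups where they are higher. So did stet, ru, rho-5, kek2, CycE and verm among the other genes, and their calls are not independent of this filter. One mean per group was fitted to 15 libraries with limma 3.58.1 in R 4.3.3 (two-sided, with a variance trend and 10 residual degrees of freedom), with Benjamini-Hochberg adjustment per comparison. Genes outside the members were named by rule: up to 2 called genes per direction, list and comparison with the largest change, and the 2 genes most correlated with each member. Alternatives were 5 scalings, a pseudocount of 0.1, a filter at FPKM 5 or none, no variance trend, only the 2 groups compared, a replicate block, and each library left out. Equal assigned reads and the block within both Nicd groups were added after seeing the data. Deviations from group means of same-numbered libraries correlated at 0.20, 0.21 and 0.43 between seq&Nicd OE and Nicd OE, above 0.1 in all 3 pairs, which was taken as pairing from the data, as no label states it. The highest correlations with a Nicd OE library of another number were 0.068, 0.26 and -0.21, so the pairing of replicate 2 is not borne out. In no comparison with Ctrl did all 3 pairs exceed 0.1. The fit was tested on simulated data.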

Additional observations from a re-analysis of the deposited data

How the results depend on the processing

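No member that was called changed direction under any alternative run. Of 1310 repeats of single-gene results, 1168 kept their direction and side of the threshold, 37 lost a call, 53 gained one and 52 changed sign. The cause of the changes was not tested. Members called numbered 6 in dpn OE against Ctrl with median scaling and 5 with quantile normalization or median of ratios (3 as deposited), 2 in Nicd OE with TPM and 3 with only these 2 groups (6), 3 in seq&Nicd OE against Ctrl with TPM and 3 with only these 2 groups (6), and 5 in seq&Nicd OE against Nicd OE with median scaling, quantile normalization or median of ratios (3). Over all genes, a filter at FPKM 5 gave 2329 calls in ttk-RNAi, 3079 in dpn OE and 1792 in seq&Nicd OE against Ctrl and 912 in seq&Nicd OE against Nicd OE, for fewer genes tested. In Nicd OE against Ctrl, TPM gave 1898 and only these 2 groups 1512, and only these 2 groups gave 1408 in seq&Nicd OE against Ctrl. With TPM, 1932 genes were higher and 686 lower there. Under median scaling, quantile normalization and median of ratios, dpn OE had 1845 and 2581, 2274 and 1711, and 2128 and 1895. Between seq&Nicd OE and Nicd OE the same scalings gave 817 and 950, 1035 and 1124, and 1169 and 914.

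The replicate block within both Nicd groups, where a pairing was taken from the data, called 6 members and 2502 genes, against 3 and 1382 in those groups without it. As a block over all 15 libraries, the replicate number gave 5 members called in ttk-RNAi, 4 in dpn OE, 6 for Nicd OE and 7 for seq&Nicd OE against Ctrl, and 3 in seq&Nicd OE against Nicd OE. There sty fell in dpn OE (adjusted p = 0.039), vn rose in ttk-RNAi (0.034) and spi fell in seq&Nicd OE (0.037), with limma and Benjamini-Hochberg adjustment. Calls over all genes with this block of 15 libraries are not given here, so its member counts stand without a background.

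Leaving out each library gave 4 to 7 members called for ttk-RNAi, 3 to 4 for dpn OE, 5 to 7 for Nicd OE and 4 to 10 for seq&Nicd OE, each against Ctrl, and 2 to 5 in seq&Nicd OE against Nicd OE. Without Ctrl replicate 2 these were 7 in ttk-RNAi, 10 in seq&Nicd OE against Ctrl and 5 against Nicd OE. Over all genes the ranges were 2650 to 3838, 3764 to 4857, 2151 to 4068, 2023 to 3405 and 1188 to 2198 in the same order. These ranges cover all left-out libraries together. The member counts without Ctrl replicate 2 therefore stand without a background of their own and are not read as a result about the 10 genes.

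The signs that turned all belong to differences that did not pass as deposited, and follow as log2 differences under median scaling, quantile normalization and median of ratios. In dpn OE against Ctrl they were -0.28, -0.25 and -0.21 for vn, -0.54, -0.18 and -0.56 for spi (-0.059 with TPM), -0.47, -0.43 and -0.44 for Krn (then called lower), -0.17, -0.13 and -0.15 for aos, and -0.17, -0.14 and -0.12 for pnt. For spi they were -0.23, -0.29 and -0.22 in ttk-RNAi against Ctrl (-0.024 with equal assigned reads), and -0.15, -0.079 and -0.17 in seq&Nicd OE against Nicd OE (-0.028 with equal assigned reads). For sty in seq&Nicd OE against Nicd OE they were -0.12, -0.040 and -0.15 (-0.0023 with equal assigned reads), and Krn there was at -0.012 with median scaling. Egfr in Nicd OE against Ctrl was at 0.027, 0.075 and 0.089 (0.075 with TPM, 0.0999 with equal assigned reads), and in seq&Nicd OE at 0.020 with TPM.

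Leaving out single libraries also turned the sign of uncalled differences. Against Ctrl the log2 differences ranged from -0.98 to 0.10 for Egfr and -0.48 to 0.57 for cic in Nicd OE, -1.01 to 0.072 for Egfr in seq&Nicd OE, and -0.74 to 0.56 for spi and -1.02 to 0.034 for cic in ttk-RNAi. In dpn OE they ranged from -0.24 to 0.995 for aos, -0.063 to 0.67 for pnt, -0.77 to 0.53 for spi and -0.16 to 0.68 for vn. Between seq&Nicd OE and Nicd OE the ranges were -0.25 to 0.11 for Egfr, -0.17 to 0.50 for spi and -0.016 to 0.53 for sty. With 3 libraries a group, and a control group as wide as this one, differences of 2-fold between means were often not called, and a p that misses the threshold does not show that levels are equal.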
